A study of Mus musculus with 4 samples.

Results

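Mitosis is driven by a set of genes whose transcripts accumulate in G2 and M phase. The 35 genes described here were taken by name from the 40630 genes of the deposited table. They encode mitotic cyclins and kinases, kinetochore and spindle proteins, the spindle checkpoint, activators of the anaphase promoting complex and cytokinesis factors, with kinesins left out by intent. Cenpe, which encodes a kinetochore motor of the kinesin family, was nevertheless among the named genes and was kept.

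RNA was measured in cortex of C57BL/6 mouse embryos at E13.5. The libraries labelled as Upf2 conditional knockout (cKO-labelled, replicates 4 and 5) were Upf2fl/fl with Emx1-Cre, and the controls (replicates 8 and 9) were Upf2fl/+ without Cre, so every library carried at least 1 floxed Upf2 allele and Cre presence and allele number differed together. Upf2 encodes an adaptor of nonsense-mediated mRNA decay, and Emx1-Cre recombines in the dorsal telencephalic lineage, so interneurons, vessels, meninges and blood keep the gene. Whether the libraries come from different embryos is not stated in the labels, and the p-values cover only the spread between the libraries, which may be technical. Upf2 itself stood at 27.8 and 42.2 TPM (transcripts per 1000000) in cKO-labelled cortex against 23.7 and 41.3 TPM in control cortex, so the gene was not lower by its whole-gene level (log2 fold change 0.13 ± 0.36 (SE), limma adjusted p = 0.853) and this level did not check the labels.

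At E13.5 the cortical wall holds dividing apical radial glia at the ventricle, intermediate progenitors above them, and new neurons that have left the cell cycle. The level of a mitotic transcript in such tissue depends on how many cells are in late G2 and M phase and on how much of it each holds, and in bulk RNA fewer dividing cells and less RNA per dividing cell cannot be told apart. Transcription of these genes is held back in quiescent and early-cycle cells by the DREAM complex and switched on by MuvB with B-Myb and FoxM1. These complexes act through a promoter element called the CHR, while the factor NF-Y binds CCAAT boxes beside it.

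The promoters of 4 members with both elements are shown, as these members differ in their ratio between the control libraries on deposited TPM. The TPM of control replicate 9 over that of replicate 8 was 2.23 for Top2a, 1.66 for Cdk1, 1.46 for Ube2c and 0.786 for Cdc20. Transcript GC content rose in the same order (43.4%, 47.8%, 55.5% and 55.6%). After removal from each library of its trend with GC content, control replicate 9 lay above replicate 8 for all 4. Deviations from the gene mean in replicates 8 and 9 were then -0.18 and 0.78 for Ube2c and 0.07 and 0.14 for Cdc20. The part of the promoters in these differences was not tested. Each promoter shown is the 150 bases before the RefSeq start site (build GRCm38.p6), 5′ to 3′ on the strand of the gene, with every TTTGAA (a CHR core) and CCAAT, on either strand, in capitals. The windows are chr10:69352913-69353062 (Cdk1), chr11:99024190-99024339 (Top2a) and chr4:118437344-118437493 (Cdc20) on the minus strand, and chr2:164769779-164769928 (Ube2c) on the plus strand.
Cdk1: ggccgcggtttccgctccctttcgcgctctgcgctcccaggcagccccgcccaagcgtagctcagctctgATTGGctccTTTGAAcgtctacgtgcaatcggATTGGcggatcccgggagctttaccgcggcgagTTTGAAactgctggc
Top2a: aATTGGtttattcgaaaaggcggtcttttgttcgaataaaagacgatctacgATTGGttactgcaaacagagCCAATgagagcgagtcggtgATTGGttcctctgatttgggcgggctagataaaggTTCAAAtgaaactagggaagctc
Cdc20: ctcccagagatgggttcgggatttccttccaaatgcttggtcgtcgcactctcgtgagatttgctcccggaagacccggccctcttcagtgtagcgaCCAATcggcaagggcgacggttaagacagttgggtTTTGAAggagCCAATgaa
Ube2c: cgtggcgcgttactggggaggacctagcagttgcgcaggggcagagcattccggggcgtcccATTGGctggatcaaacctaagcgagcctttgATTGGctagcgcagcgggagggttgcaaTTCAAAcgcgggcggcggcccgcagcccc

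Of the 35 members, 28 were in the RefSeq promoter table, and Ccna2, Cdc25c, Pbk, Aurkb, Incenp, Tpx2 and Dlgap5 were not. In the 300-base windows (250 before the start and 50 after it), TTTGAA was found on either strand for 18 of 28 members (64.3%), against 20.2% of the 27025 genes in the table. CCAAT was found for 21 members (75.0%), against 41.1% of all genes, and both motifs for 16 members (57.1%), against 7.97%. The 18 members with TTTGAA had a median log2 fold change of -0.67 and the 10 without it -0.75, and after removal from each library of its trend with transcript GC content the order turned, at -0.32 with TTTGAA and -0.26 without it. Birc5, Nuf2, Mad2l1, Nusap1 and Tacc3 held neither motif in this window.

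All 35 members were detected in every library and passed the filter of a mean TPM of at least 1. Most were low in the cKO-labelled libraries, a little higher in control replicate 8 and much higher in control replicate 9. The summed level of the members was 2925 and 2904 TPM in cKO-labelled cortex against 3378 and 4845 TPM in control cortex. These sums are 0.293% and 0.290% of the TPM of the cKO-labelled libraries, against 0.338% and 0.484% in controls. Reads behind a member went from 618 in cKO-labelled replicate 4 (Sgo1) to 33837 in control replicate 9 (Top2a).

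**Figure D1:**
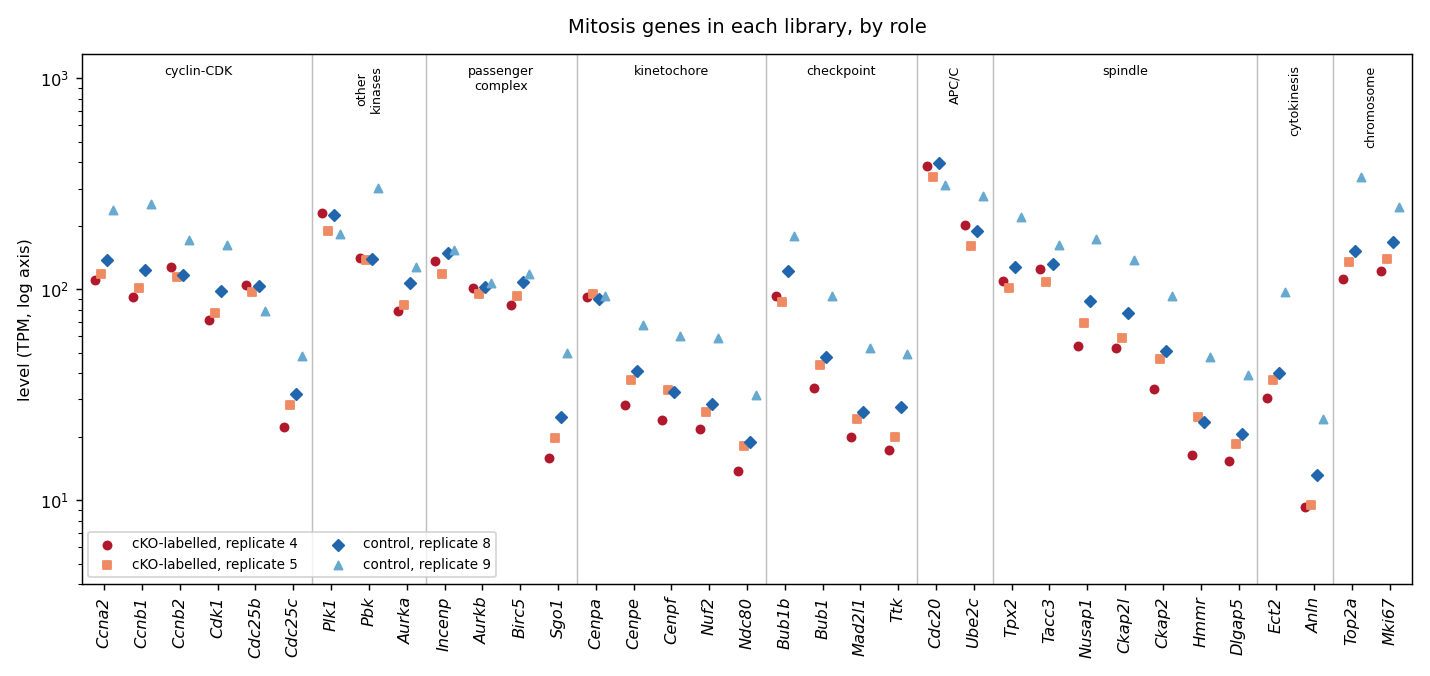
Level of each of the 35 mitosis genes in TPM (log axis), 1 point per library, with the genes grouped by role. Control replicate 9 stands above control replicate 8 for 32 of 35 genes, while the cKO-labelled libraries lie close to control replicate 8, with both below it for 27 genes (77.1%, against 44.1% of all genes tested).

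Only Nusap1 passed the test. Of 35 members 1 fell and none rose (limma on log2(TPM + 1), adjusted p under 0.05), while 8.14% of all 15107 genes tested were called, 5.24% lower and 2.9% higher. At an unadjusted p under 0.05, 15 members were lower (42.9%), against 14.6% of all genes. The median log2 fold change of the members was -0.67, against -0.16 for all genes tested. Of the members' values 31 of 35 were negative, against 8960 of 15107 over all genes tested. Scaling by median of ratios put the median of all genes at -0.01 and that of the members at -0.50, and it turned the split of all calls to 772 higher and 697 lower, against 438 higher and 791 lower on TPM. Both cKO-labelled libraries lay below both controls for 26 members (74.3%), against 34.1% of all genes. The 9 members whose groups overlapped were Hmmr, Cenpf, Pbk, Ube2c, Ccnb2, Cdc25b, Plk1, Cdc20 and Cenpa.

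The size of the difference depended on control replicate 9. Against control replicate 8 alone the members' median was -0.28 (all genes -0.05), and against control replicate 9 alone it was -1.06 (all genes -0.24). Within the controls, replicate 9 minus replicate 8 had a member median of 0.78 on the log2 scale (all genes 0.17), which is larger than the difference between the groups. Control replicate 9 was the higher for 32 of 35 members (91.4%), against 57.9% of all genes, and was over 1.5 times control replicate 8 for 22 of them. In the cKO-labelled pair, replicate 5 minus replicate 4 had a median of 0.15. A fit without 1 control takes its spread within a group from this pair alone. A fit without 1 cKO-labelled library takes it from the control pair alone. The counts of calls in those fits depend on which pair is left and do not measure the members' change. Without control replicate 9 no member was called by limma, while 3.3% of all genes were called lower, and 7 of 35 members were lower at an unadjusted p under 0.05, against 10.9% of all genes. Without control replicate 8, 28 members (80.0%) were called lower, against 30.1% of all genes. No member was called without cKO-labelled replicate 4 or 5, where 1.05% and 1.5% of all genes were called lower.

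**Figure D2:**
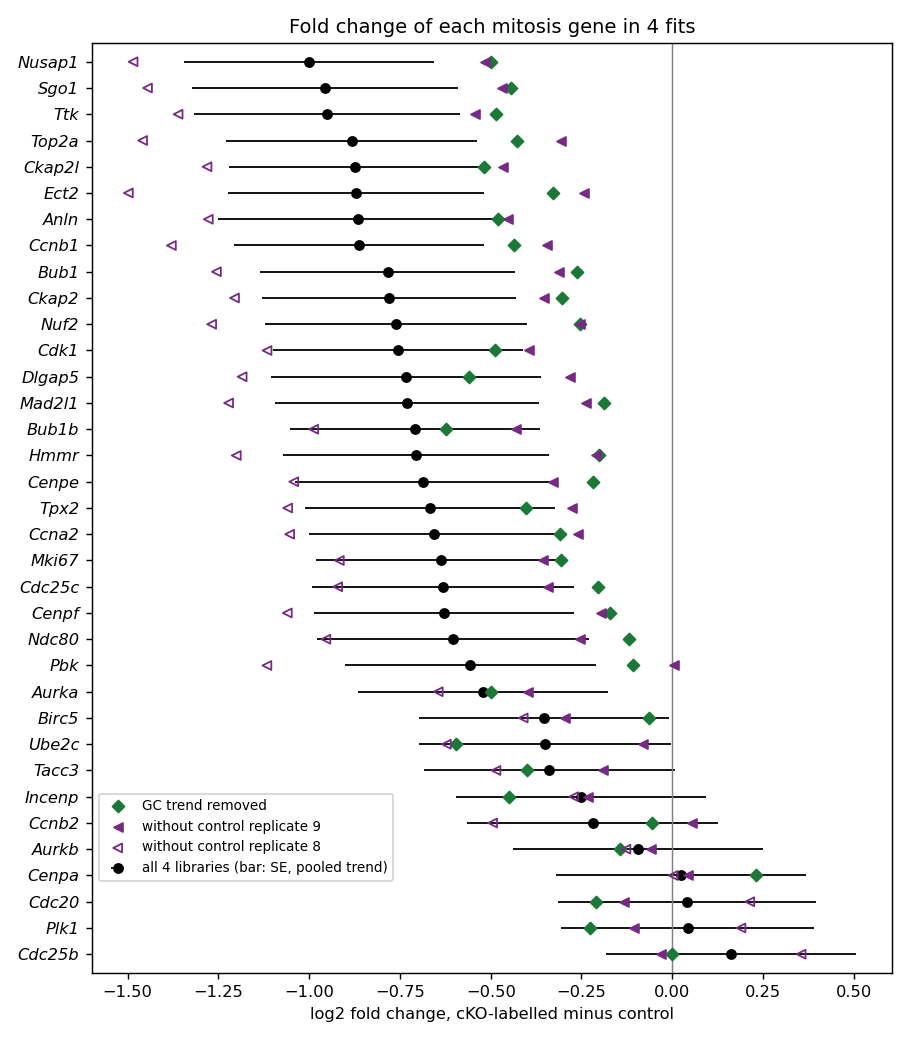
Log2 fold change of each member (cKO-labelled minus control) with all 4 libraries (black, bar: SE from the pooled trend), after removal of the GC trend (green), and without control replicate 9 (filled triangles) or 8 (open triangles). Nusap1 is the lowest with all libraries, at -1.0. For 32 of 35 members the open triangle lies left of the filled one, the exceptions being Cdc25b, Plk1 and Cdc20.

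Cyclins and their kinase form the switch into mitosis. Cdk1, the catalytic subunit, had 71.1 and 77.2 TPM in cKO-labelled cortex against 97.7 and 161.8 TPM in control cortex (log2 fold change -0.75 ± 0.34 (SE), limma adjusted p = 0.162). Its partner Ccnb1, cyclin B1, had 91.6 and 101.8 TPM in cKO-labelled cortex against 122.9 and 252.9 TPM in control cortex (-0.86 ± 0.34 (SE), adjusted p = 0.102). Ccna2, cyclin A2, which acts from S phase to early mitosis, had 110.8 and 118.1 TPM in cKO-labelled cortex against 137.2 and 238.6 TPM in control cortex. In these 3 genes both cKO-labelled libraries lay below both controls, as for 34.1% of all genes tested. The controls, however, differed from each other more than control replicate 8 differed from the cKO-labelled pair. Ccnb2, cyclin B2, showed no such order, with 128.1 and 114.8 TPM in cKO-labelled cortex against 116.6 and 171.3 TPM in control cortex. The CDK-activating phosphatases parted: Cdc25c stood at -0.63, also without overlap between the groups. Cdc25b, which is also known for a role in neurogenic divisions in chick and mouse, had 104.5 and 97.3 TPM in cKO-labelled cortex against 103.1 and 78.6 TPM in control cortex (0.16, limma adjusted p = 0.798).

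Among the mitotic kinases, Plk1 (ENSMUSG00000030867.7, chromosome 7, 122159439 to 122169873 in GRCm38), which drives centrosome maturation and mitotic entry, had 230.7 and 189.1 TPM in cKO-labelled cortex against 224.7 and 183.1 TPM in control cortex. Its groups interleaved (0.04 ± 0.35 (SE), limma adjusted p = 0.952). Aurka, the centrosome and spindle pole kinase, had 79.0 and 84.0 TPM in cKO-labelled cortex against 107.6 and 127.9 TPM in control cortex, without overlap (-0.52, adjusted p = 0.352). Pbk, a kinase active in mitosis, was at 140.7 and 136.8 TPM in cKO-labelled cortex against 138.3 and 302.0 TPM in control cortex. Only control replicate 9 stood apart for Pbk, and the fold change was 0.0049 without that library.

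The chromosomal passenger complex corrects wrong attachments of chromosomes to the spindle. Its kinase Aurkb had 101.7 and 94.5 TPM in cKO-labelled cortex against 102.2 and 107.2 TPM in control cortex, and its scaffold Incenp had 135.7 and 117.9 TPM in cKO-labelled cortex against 148.7 and 152.9 TPM in control cortex. Birc5, the subunit survivin, stood at -0.35. In these 3 genes the control libraries were close to each other, with differences of 0.04 to 0.12 on the log2 scale. Sgo1, the shugoshin that protects centromeric cohesin, departed from them on deposited TPM. It had 15.9 and 19.7 TPM in cKO-labelled cortex against 24.9 and 49.9 TPM in control cortex (-0.96 ± 0.37 (SE), limma adjusted p = 0.0858). After GC removal Sgo1 and Incenp both stood at -0.45, with Aurkb at -0.15 and Birc5 at -0.063. Deviations from the gene mean in control replicates 8 and 9 were then 0.03 and 0.42 for Incenp, and 0.19 and -0.13 for Birc5.

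At the kinetochore, 4 of 5 members had negative fold changes and none passed. The microtubule-binding subunits Ndc80 and Nuf2 stood at -0.60 and -0.76, the motor gene Cenpe at -0.69 and Cenpf, a large kinetochore protein, at -0.63. Cenpa, the histone variant that marks centromeres, had 91.6 and 94.6 TPM in cKO-labelled cortex against 90.2 and 92.9 TPM in control cortex. Cenpa was the most even member over the libraries (0.02 ± 0.34 (SE), limma adjusted p = 0.975).

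The spindle assembly checkpoint holds anaphase until all chromosomes are attached. Its 4 members had no overlap between groups, both cKO-labelled libraries lying below both controls, as for 34.1% of all genes tested. The same held for Aurkb, Incenp, Birc5, Sgo1, Ect2, Anln, Top2a and Mki67. Bub1b, which encodes BubR1 of the mitotic checkpoint complex, had 93.2 and 86.8 TPM in cKO-labelled cortex against 121.6 and 179.3 TPM in control cortex (-0.71, limma adjusted p = 0.195). Ttk, the kinase Mps1 at the head of the checkpoint, had 17.3 and 19.9 TPM in cKO-labelled cortex against 27.5 and 49.3 TPM in control cortex (-0.95, adjusted p = 0.0862). Bub1 and Mad2l1 stood at -0.78 and -0.73. Cdc20 (ENSMUSG00000006398.15, chromosome 4, 118432901 to 118437352 in GRCm38), the activator of the anaphase promoting complex that this checkpoint restrains, was the most abundant member. It had 385.6 and 341.9 TPM in cKO-labelled cortex against 398.4 and 313.0 TPM in control cortex, with overlapping groups (0.04, adjusted p = 0.956). Ube2c, the ubiquitin-conjugating enzyme of the same complex, overlapped as well, at 201.2 and 159.9 TPM in cKO-labelled cortex against 189.6 and 276.6 TPM in control cortex.

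The spindle-associated members had 7 negative fold changes of 7, between -0.34 (Tacc3) and -1.0 (Nusap1). Nusap1 (ENSMUSG00000027306.15, chromosome 2, 119618298 to 119651244 in GRCm38), which encodes a microtubule-bundling protein of the spindle, had 53.6 and 69.5 TPM in cKO-labelled cortex against 87.8 and 172.7 TPM in control cortex. Its level fell by 1.0 on the log2(TPM + 1) scale (SE 0.35, limma adjusted p = 0.0469). This call was kept in 3 of 14 alternatives, with adjusted p-values of 0.00142 to 1.00, and was lost without control replicate 9 (-0.52, adjusted p = 0.163). It was also lost without cKO-labelled replicate 4 or 5, at differences of -0.82 and -1.18, where only the 2 controls are left to give the spread within a group. Ckap2l, a spindle protein known for neural progenitor divisions, had 52.9 and 58.8 TPM in cKO-labelled cortex against 77.5 and 137.0 TPM in control cortex (-0.87, adjusted p = 0.0968). The spindle assembly factor Tpx2 stood at -0.67, the related Ckap2 at -0.78, Dlgap5, a microtubule-stabilising protein, at -0.73 and Hmmr, which helps organise spindle poles, at -0.71. For Hmmr the cKO-labelled replicate 5 (24.9 TPM) lay above control replicate 8 (23.5 TPM).

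Cytokinesis and chromosome members followed the same order of libraries. Ect2, the exchange factor that switches on RhoA at the cleavage furrow, had 30.3 and 37.1 TPM in cKO-labelled cortex against 39.9 and 96.6 TPM in control cortex (-0.87, limma adjusted p = 0.108). Anln, the furrow scaffold anillin, was the least abundant member, with 9.24 and 9.53 TPM in cKO-labelled cortex against 13.2 and 24.2 TPM in control cortex. Top2a, the topoisomerase that untangles sister chromatids, had 111.9 and 134.3 TPM in cKO-labelled cortex against 151.8 and 338.7 TPM in control cortex (-0.88, adjusted p = 0.0929). Mki67, which coats mitotic chromosomes and is the proliferation marker Ki-67, had 122.2 and 138.6 TPM in cKO-labelled cortex against 166.9 and 246.6 TPM in control cortex (-0.64, adjusted p = 0.249). Both Mki67 and Top2a were lowest in cKO-labelled replicate 4 and highest in control replicate 9.

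The members' differences varied with the GC content of their transcripts. Taken over the longest transcript of each gene, GC content went from 40.1% (Mad2l1) to 56.0% (Plk1). Across the 35 members the Spearman correlation with GC content was -0.82 for control replicate 9 minus 8, -0.86 for cKO-labelled replicate 5 minus 4, and 0.72 for the fold change between groups. Over 15100 genes tested with a GC value the same correlations were -0.76, -0.32 and 0.54. These points share the same 4 libraries and genes are not independent replicates. The 12 members of lowest GC content had a median fold change of -0.77 and a median difference between controls of 0.96, while the 11 of highest GC content, Plk1, Cdc20, Cdc25b and Aurkb among them, had -0.25 and 0.25.

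**Figure D3:**
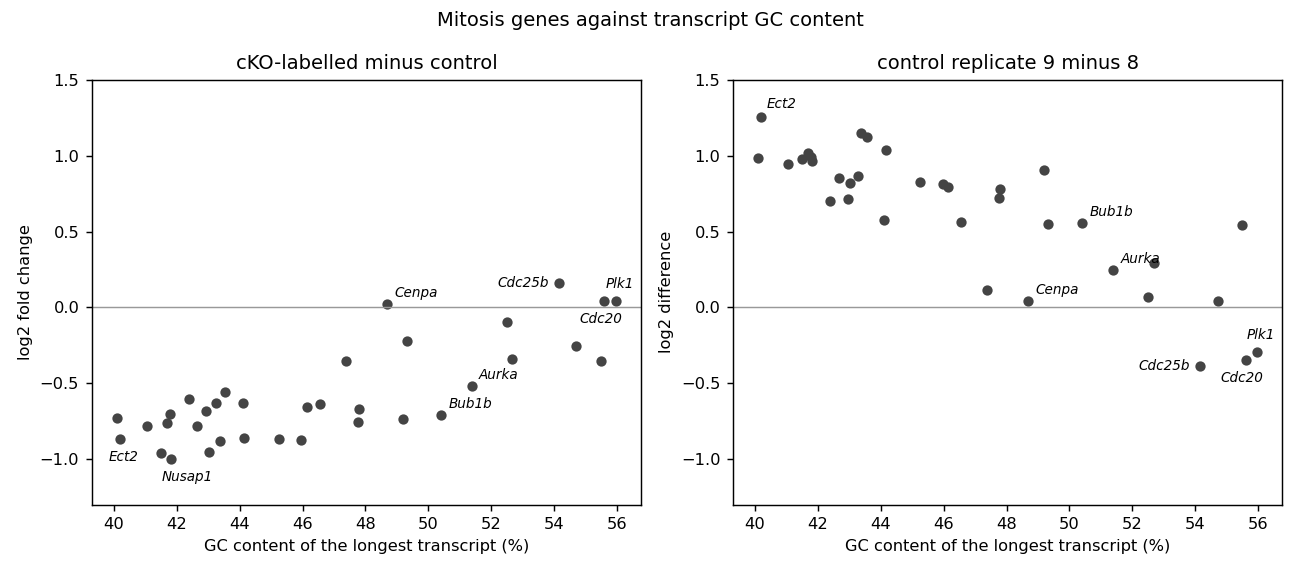
Each point is 1 of the 35 mitosis genes, placed by the GC content of its longest transcript (%) against its log2 fold change between groups (left) and the log2 difference of control replicate 9 minus 8 (right). Genes of low GC content lie lowest on the left and highest on the right, and Plk1 and Cdc20, at about 56% GC, lie near 0 on the left and below 0 on the right.

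After a smooth GC trend was removed from each library, the members stood lower by less. Their median fold change was -0.31, against -0.01 for all genes, with 34 of 35 values negative, and the exception was Cenpa at 0.23. The members' median deviation from the gene mean was -0.17 and -0.18 in cKO-labelled cortex against 0.03 and 0.28 in controls. The groups did not overlap for 25 members (71.4%), against 30.8% of all genes. None was called by limma, with 4.68% of all genes called lower, and 10 (28.6%) were lower at an unadjusted p under 0.05, against 13.9% of all genes. The order among members also differed: the 11 of highest GC content had a median of -0.40 and the 12 of lowest GC content -0.26, and Bub1b and Ube2c, at -0.62 and -0.60, were the lowest. The Ube2c value rested on control replicate 9: its GC-removed deviations were -0.12 and -0.48 in cKO-labelled cortex against -0.18 and 0.78 in control cortex, so the groups overlapped, and without that library the GC-removed fold change was -0.11. Plk1 and Cdc20 then stood at -0.23 and -0.21 (adjusted p = 0.464 and 0.498).

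Other genes of the cell cycle were also mostly lower in value in cKO-labelled cortex, with few calls. Of 57 other G2 and M phase genes, 1 fell and none rose (median -0.44, and -0.20 without control replicate 9 or after GC removal). The one that fell was Depdc1a, a mitotic regulator gene, with 9.39 and 16.7 TPM in cKO-labelled cortex against 23.0 and 38.6 TPM in control cortex (-1.18, limma adjusted p = 0.0266). Without control replicate 9 it stood at -0.82 (adjusted p = 0.199). None of 12 mitotic kinesins passed (median -0.55), with Kif20a, a motor of the central spindle, the nearest at -0.93 (adjusted p = 0.0712), and at -0.71 after GC removal, where it was called (adjusted p = 0.0446). Of 16 genes of the DREAM and MuvB complexes and their partners none passed (median -0.32), and Tfdp1, the partner of E2F factors, stood at -0.95 (adjusted p = 0.0647).

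Of 46 S phase genes 2 fell and none rose, with a median of -0.49, or -0.27 without control replicate 9. They were Orc1, of the origin recognition complex, and the chromatin remodeller gene Hells, at -1.17 and -1.04, both lost without control replicate 9 (adjusted p = 0.205 and 0.237). Per TPM of S phase genes, the members had 0.753 and 0.770 TPM in cKO-labelled cortex against 0.751 and 0.879 TPM in control cortex. By this ratio, from which the GC trend was not removed, control replicate 8 lay just below the cKO-labelled pair and control replicate 9 stood alone.

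Some marker genes of the cell types in the tissue differed between the groups, and their part in the members' values was not tested. Of 15 apical radial glia markers 3 fell and none rose: Hes1, Lhx2 and Emx2, at -1.10, -1.09 and -1.41. The median of this list was -0.11, against -0.16 for all genes tested, and -0.03 after GC removal. The summed level of the 15 markers was 3504 and 3547 TPM in cKO-labelled cortex against 3430 and 4548 TPM in control cortex. Per TPM of these markers, the members had 0.835 and 0.819 TPM in cKO-labelled cortex against 0.985 and 1.07 TPM in control cortex. The GC trend was not removed from this ratio, and median GC content was 46.0% for the members against 50.5% for these markers. Of 8 intermediate progenitor markers 3 rose, Gadd45g, Mfng and Insm1, while Eomes, the defining transcription factor of these cells, stood at -0.21 (limma adjusted p = 0.734). Their median GC content was 58.1%, against 49.8% for all genes tested, and their median fold change was 0.85, or 0.42 after GC removal. Insm1 was then no longer called (limma adjusted p = 0.0890), while Gadd45g and Mfng still were (0.0339 and 0.0395). The sum of the 8 markers was 2118 and 2460 TPM in cKO-labelled cortex against 1396 and 1200 TPM in control cortex. Gadd45g, a growth arrest and DNA damage gene, had 610 and 867 TPM of it in cKO-labelled cortex against 174 and 220 TPM in control cortex, and without it the sum was 1509 and 1592 TPM in cKO-labelled cortex against 1222 and 979 TPM in control cortex.

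Of 14 projection neuron markers 1 rose, the tau gene Mapt at 1.48, and 5 had negative values. The median of the list was 0.33, or 0.47 after GC removal and 0.41 without control replicate 9. Fezf2, a transcription factor of deep-layer neurons, stood at -0.98 (limma adjusted p = 0.0531), and was called lower without control replicate 9 (adjusted p = 0.0222) and after GC removal (adjusted p = 0.0175). The sum of the list was 7322 and 6229 TPM in cKO-labelled cortex against 4427 and 3412 TPM in control cortex. Most of that difference was the neuronal tubulin gene Tubb3, which did not pass (1.11, adjusted p = 0.0954). Without Tubb3 the sum was 1572 and 1744 TPM in cKO-labelled cortex against 1280 and 1660 TPM in control cortex.

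**Figure D4:**
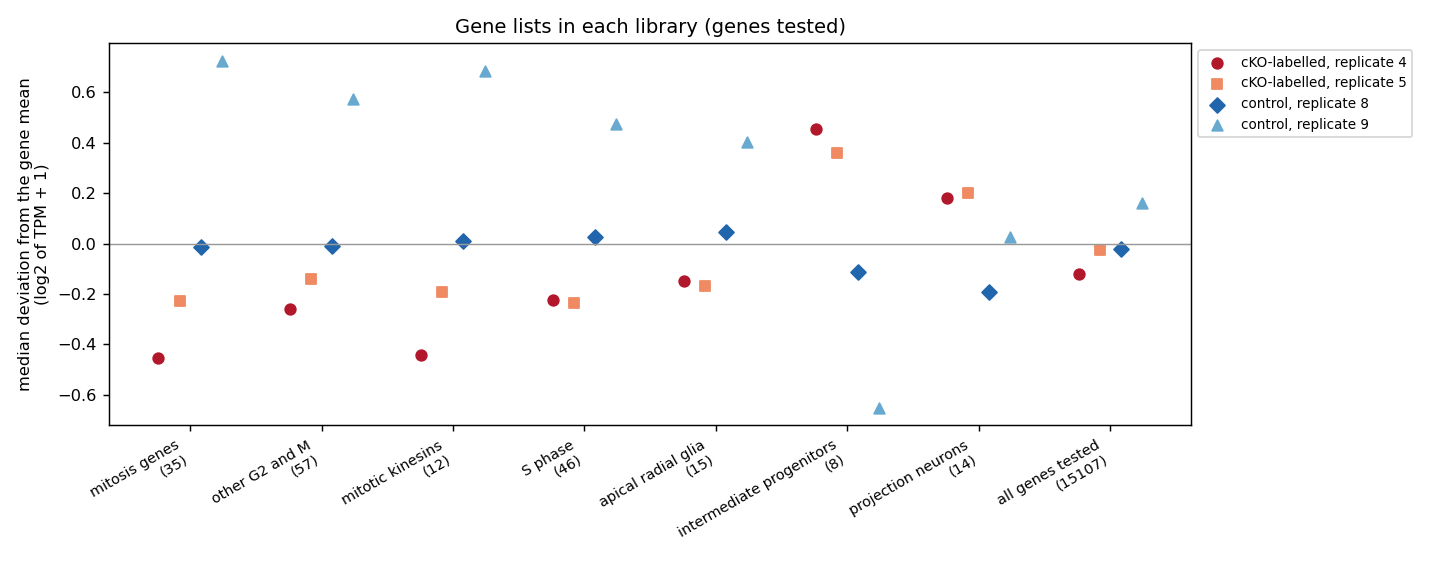
Median deviation of each gene list from the gene's mean over the 4 libraries, on the scale of log2(TPM + 1), 1 point per library, with the number of genes tested in brackets. Mitosis, other G2 and M phase, kinesin, S phase and apical radial glia lists are lowest in the cKO-labelled libraries and highest in control replicate 9, and intermediate progenitor markers run the other way. All genes tested have the same order as the first lists, at -0.12 and -0.03 in cKO-labelled cortex against -0.02 and 0.16 in control cortex. The GC trend was not removed from these values.

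Markers of tissue that borders the cortex differed between the groups as well. Of 16 ganglionic eminence markers 14 rose, with a sum of 1295 and 693 TPM in cKO-labelled cortex against 188 and 318 TPM in control cortex, and none was at 0. Nkx2-1 differed within the cKO-labelled pair, at 44.2 and 3.73 TPM against 0.220 and 1.11 TPM in control cortex. After GC removal the calls of Nkx2-1 and Dlx2 were lost (limma adjusted p = 0.0895 and 0.0626), while that of Sst was kept (0.0015). All 13 markers of the cortical hem and choroid plexus fell, with a sum of 7.48 and 14.4 TPM in cKO-labelled cortex against 2162 and 2370 TPM in control cortex, and Kcne2 at 0 in cKO-labelled replicate 4. Of 11 meningeal markers 10 fell, with a sum of 117 and 115 TPM in cKO-labelled cortex against 590 and 374 TPM in control cortex. The 8 markers of neocortical identity were present in every library, with a sum of 1156 and 1431 TPM in cKO-labelled cortex against 1594 and 1774 TPM in control cortex, and 2 of them, Lhx2 and Emx2, fell. Emx1, of the same list, stood at -0.66 (limma adjusted p = 0.230), and was called lower without control replicate 9 (-0.93, adjusted p = 0.0285) and after GC removal (-1.27, adjusted p = 0.0144). Under median-of-ratios scaling the Lhx2 call was lost (adjusted p = 0.127), as was that of Hes1 (adjusted p = 0.0867). Of microglia and macrophage markers 3 of 9 fell, of endothelium and pericyte markers 1 of 10, and none of 6 Cajal-Retzius markers or 10 red blood cell markers passed. The red blood cell sum differed within groups, at 17584 and 7757 TPM in cKO-labelled cortex against 18176 and 9517 TPM in control cortex. The part of these tissues in the members' values was not tested.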

How the data were processed

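RNA-seq of 4 libraries was analysed, 2 per group, grouped by the genotype in the labels. Per the labels' protocols, total RNA (TRIzol, DNase) was made into libraries with a stranded total RNA kit, and per the submitters' processing notes reads were aligned with STAR to mm10. No source used here gives the gene counter, its strand setting or the annotation release. The table the authors deposited holds TPM values for 40630 genes, and each library sums to 1000000. TPM multiplied by the exon length in GENCODE M21 gave whole reads (tolerance 0.05 reads) for 100.0% of values above 0, with totals of 33537843 and 36453920 reads in the cKO-labelled libraries and 41680052 and 38274835 in controls. These reads are given as depth only.

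A fold change is the cKO-labelled mean of log2(TPM + 1) less the control mean, and such values understate changes of low genes. Genes averaging 1 TPM or more (15107) entered a limma 3.58.1 fit run under R 4.3.3 (intensity trend, two-sided, Benjamini-Hochberg over all genes). The fit was checked on simulated data with independent, equal noise for all genes and shifts larger than any member's. That check does not cover changes of the members' size or deviations shared along GC content. Prior degrees of freedom were infinite in the fit of all 4 libraries, so each printed SE is that of a pooled trend and not of the gene's own replicates. They were finite, at 4.95 with no filter, 5.87 after GC removal, 7.22 without control replicate 8, 7.64 without control replicate 9 and 5.62 with the GC trend removed and without control replicate 9. Those tests also use each gene's own spread, so their counts of calls differ from the others in the form of the test too. For 2 against 2 libraries the smallest exact permutation p is 0.333, and no such test was run. GC content is that of the longest M21 transcript, and its trend was removed by lowess (span 0.3). Promoters are from RefSeq. The members, the lists and the alternatives were chosen with earlier results of these data known. All members were named. Upf2, the neocortex identity genes and, from each other list, genes of smallest p (up to 4, or 3 of a marker list whose sum differed by over 1.5 times) could be named, and Hes1 was added after its value was seen, to complete a count. The fit with the GC trend removed and without control replicate 9 was added after seeing the data.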

Additional observations from a re-analysis of the deposited data

How the results depend on the processing

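With 2 libraries per group and a pooled spread, the members' calls depend on which library is left out. Of 35 members, 28 kept their direction in all 14 alternatives, and the members' median fold change, -0.67, stayed negative in each, at -0.31 after GC removal, -0.28 to -1.06 when 1 library was left out, and -0.18 with the GC trend removed and without control replicate 9. The number of members called was 1 with all libraries, 1 with a pseudocount of 0.5 or quantile normalization, 0 in the other fits of all 4 libraries (pseudocount 0.1, GC removal, no filter, a filter at 5 TPM, scaling by median of ratios, no intensity trend, robust empirical Bayes), 0 to 28 when 1 library was left out, and 0 with the GC trend removed and without control replicate 9. For the other G2 and M phase genes the count was 2 with a pseudocount of 0.1 or no intensity trend, 0 with no filter or after GC removal, 0 to 38 when 1 library was left out, and 0 with both. Over all genes the 1229 calls (791 lower, 438 higher) became 178 (174 and 4) with no filter and 642 (328 lower) with the filter at 5 TPM, scaling by median of ratios gave 772 higher and 697 lower, quantile normalization gave 714 higher and 535 lower, the lower calls were 492 with the GC trend removed and without control replicate 9, and leaving out 1 library gave 176 to 7379 calls (158 to 4549 lower, 18 to 2830 higher). When 1 library is left out, the pair of the other group alone gives the spread within a group, so these counts depend on which pair is left. Other causes were not tested. Prior degrees of freedom, infinite with all libraries, were 4.95 with no filter and also finite after GC removal and without either control.

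Of the members, 7 turned sign in at least 1 alternative. With all 4 libraries Pbk stood at -0.56 and Ccnb2 at -0.22, and the others lay nearer 0. Upf2, which is not a member, also turned sign. Quantile normalization gave -0.0213 for Plk1, -0.0281 for Cdc20 and -0.0335 for Cenpa. GC removal gave -0.23 for Plk1, -0.21 for Cdc20 and -0.00090 for Cdc25b. Scaling by median of ratios gave 0.0711 for Aurkb. Leaving out 1 library at a time gave -0.10 to 0.19 for Plk1, -0.13 to 0.21 for Cdc20, -0.0316 to 0.35 for Cdc25b, -0.49 to 0.0554 for Ccnb2, -1.12 to 0.0049 for Pbk and -0.26 to 0.52 for Upf2, with control replicate 9 or 8 left out at the ends. With the GC trend removed and without control replicate 9, Plk1 was at -0.15, Cdc20 at -0.17, Cdc25b at -0.0412, Ccnb2 at 0.0937 and Pbk at 0.12. No paired analysis was possible because the groups share no replicate number.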
